A study of Mus musculus with 12 samples.

Results

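The hearts described here are those of mice that kept miR-150 and were followed for 4 weeks after a myocardial infarction (MI). They were chosen by their labels: 3 arrays of MI miR-150 fl/fl and 3 arrays of Sham miR-150 fl/fl, 6 of the 12 arrays of the series, with 1 mouse per array. The other 6 arrays are from miR-150 cKO mice after sham or MI, in which an αMHC-Cre transgene, active in cardiomyocytes, removes the floxed gene. Each cKO group also held 1 male and 2 females, aged 15 weeks except for sham cKO replicate 2 at 14 weeks, so the cKO mice were mostly older than the miR-150 fl/fl mice. All 6 mice of interest were C57BL/6J, carried the floxed miR-150 alleles and had no Cre, so they are floxed controls rather than unmodified wild-type animals. MI was made by tying off the left anterior descending coronary artery for good, and sham animals went through the operation without the ligation. Each group held 1 male (replicate 1) and 2 females. The labels give an age of 14 weeks for the 3 MI mice and for 2 sham mice, and 13 weeks for sham replicate 3. The labels give the left ventricles as the tissue and name no separation of scar from muscle, so for every transcript below more cells of a type and more RNA per cell cannot be told apart.

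After an infarction, dead muscle is replaced by a scar. Resident fibroblasts become matrix-producing cells that lay down collagen fibres, the enzymes that trim and crosslink them, and glycoproteins such as periostin and fibronectin, while macrophages clear debris. The surviving cardiomyocytes carry more load, and typically raise natriuretic peptides and lower genes of fatty acid use. The comparison of MI with sham in miR-150 fl/fl mice shows how far such programs were visible in ventricular RNA at 4 weeks, when the scar is mature, and gives the reference against which the series sets the cKO mice.

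The arrays were 1-colour Agilent arrays. Levels are given as the log2 of the processed spot signal minus that of the 75th percentile of the same array, so that a level of 0 is the brightness of a probe at that percentile. Levels are compared between arrays for 1 probe, never between probes. A difference is MI minus sham on this log2 scale. Of 54232 transcripts tested in limma, 478 (0.881%) were higher and 198 (0.365%) lower after MI past the limits of a 1.5-fold difference and an unadjusted p of 0.05. The counts depended on single arrays and on background: 266 were higher without sham replicate 1, 1396 without sham replicate 2 and 786 without MI replicate 1, lower counts ran from 166 to 389 with 1 array left out, and normexp background correction gave 172 higher and 56 lower. After Benjamini-Hochberg adjustment limma left 0 transcripts at 0.05, with 2288 (4.22%) at an unadjusted p below it. The unpaired 2-tailed test of the methods also left 0, and quantile normalization gave 1. The words rose and fell are therefore used below only for transcripts past the limits, and an exact permutation test of 3 mice against 3 cannot go below a p of 0.1. The median difference of all transcripts was -0.01. In 3.84% of transcripts all MI arrays were above all sham arrays, and in 4.78% all were below.

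The files pair no probe with a gene. Names came from the study's own lists, through 963 entries that each matched exactly 1 probe, which named 892 transcripts. Of the transcripts past the limits, 114 of the 478 higher and 36 of the 198 lower have a name, and 138 of the named transcripts are on the study's lists for this same comparison. The other 754 were named through its lists of cKO against miR-150 fl/fl hearts, which used the same sham or MI miR-150 fl/fl arrays. Counts of named transcripts are therefore not independent evidence of direction. Over all 892 named transcripts, 114 (12.8%) rose and 36 fell past the limits, and the counts of each gene group are to be read beside these. For each gene group the number that the study had listed for this comparison is given.

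Before the results, 3 features of the arrays matter. Sham replicate 1 had low levels of many transcripts described below: it was the lowest sham array in 9 of 10 activated fibroblast markers, 18 of 24 leukocyte transcripts and 12 of 12 transcripts of oxidative phosphorylation, against 34.6% of all transcripts tested. The signals of 11 ribosomal protein transcripts summed to 187 times the 75th percentile on that array, and to 391 and 354 times on the other sham arrays. MI replicate 2 stood apart for adipocyte and urinary protein transcripts. Arrays that share a scan date in the scanner headers are called a slide here, so slide is inferred from the scan. On slide 2 the sham arrays were all in row 1 and MI replicates 1 and 2 in row 2. MI replicate 3 was on slide 1, so within slide 2 row and surgery cannot be told apart. On slide 2 alone the limits were passed upward by 482 and downward by 320 transcripts. There 3 of 6 collagens, 12 of 18 matrix glycoproteins, 8 of 10 activated fibroblast markers, 3 of 7 stress genes and 9 of 24 leukocyte transcripts rose and 0 of each fell, while 4 of 21 transcripts of fuel use fell and 1 rose, and 4 of 7 for collagen processing rose and 1 fell.

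Collagen transcripts rose in most members. Of 6 named collagen transcripts 5 rose and 0 fell, with a median difference of 1.05, and the study had listed 4 of them. In 5 of the 6 all MI arrays were above all sham arrays. Col1a2, a chain of type I collagen, the main fibre of scar, had levels of 2.49, 3.10 and 2.65 in sham and 4.16, 4.05 and 4.13 in MI. The 3 MI arrays lay close together, and all were above the highest sham array. The difference was 1.37 ± 0.27 (SE, n = 3 and 3), a 2.58-fold rise (limma adjusted p = 0.936, unadjusted 0.000466, higher in 3 of 3 MI arrays).

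Col3a1, the type III collagen that is laid down with it, had levels of 1.24, 3.13 and 2.78 in sham and 4.31, 4.53 and 4.33 in MI. Sham replicate 1 was well below the other sham arrays, and the MI arrays were above all of them. The rise was 4.02-fold, a difference of 2.01 ± 0.41 (adjusted p = 0.955 in limma). Col1a1, the other chain of type I collagen, rose by 0.98, Col5a2 by 1.11 and Col8a1 by 0.79. The call of Col5a2 was lost without sham replicate 1 (difference 0.50) and without MI replicate 3 (0.98), and that of Col8a1 without sham replicate 1 (0.56). Col6a1, a microfibril collagen, had a difference of 0.55, below the fold limit, with all MI arrays above all sham arrays. Without sham replicate 1, 3 of the 6 collagen transcripts rose.

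The regions before the start of several of these genes are known from RefSeq, and are shown for Col1a2 and Col3a1, for the natriuretic peptide genes Nppa and Nppb, which also rose, and for Pdk4, which fell. Each line gives 250 bases before the annotated start in assembly GRCm38.p6, in the direction of the gene. Capitals mark 4 short motifs searched on both strands: the TATA box TATAAA, the box CCAAT, the GATA-type site TGATAA and the muscle CAT element CATTCC. No base of 1 motif lay within another. The positions are chr6:4505368-4505617 (plus strand) for Col1a2, chr1:45311288-45311537 (plus) for Col3a1, chr4:148000472-148000721 (plus) for Nppa, chr4:147985650-147985899 (plus) for Nppb and chr6:5496279-5496528 (minus) for Pdk4.
Col1a2: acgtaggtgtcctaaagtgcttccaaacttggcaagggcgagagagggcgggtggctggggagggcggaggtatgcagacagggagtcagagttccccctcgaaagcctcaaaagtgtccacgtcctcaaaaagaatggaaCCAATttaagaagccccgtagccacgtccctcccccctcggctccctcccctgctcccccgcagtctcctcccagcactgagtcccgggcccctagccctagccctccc
Col3a1: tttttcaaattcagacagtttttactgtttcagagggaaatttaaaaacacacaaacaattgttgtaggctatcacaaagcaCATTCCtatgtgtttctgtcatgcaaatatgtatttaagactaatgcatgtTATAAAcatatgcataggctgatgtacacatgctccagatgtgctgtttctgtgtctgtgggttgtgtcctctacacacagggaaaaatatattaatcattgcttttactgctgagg
Nppa: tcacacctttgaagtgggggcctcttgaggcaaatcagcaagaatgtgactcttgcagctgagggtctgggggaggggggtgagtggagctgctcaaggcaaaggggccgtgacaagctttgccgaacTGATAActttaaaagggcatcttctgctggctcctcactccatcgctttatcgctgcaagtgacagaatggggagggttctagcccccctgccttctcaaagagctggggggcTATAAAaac
Nppb: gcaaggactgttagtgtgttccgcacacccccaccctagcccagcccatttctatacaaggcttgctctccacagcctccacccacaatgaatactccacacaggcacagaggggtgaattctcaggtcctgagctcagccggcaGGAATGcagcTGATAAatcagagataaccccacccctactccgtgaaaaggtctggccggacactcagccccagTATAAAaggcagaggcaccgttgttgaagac
Pdk4: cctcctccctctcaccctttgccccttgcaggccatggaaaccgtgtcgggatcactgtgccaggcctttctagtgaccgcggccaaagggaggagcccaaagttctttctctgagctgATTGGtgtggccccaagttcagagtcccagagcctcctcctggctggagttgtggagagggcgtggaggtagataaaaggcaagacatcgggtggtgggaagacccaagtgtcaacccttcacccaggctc
TATAAA was found in 3 of the 5 windows. It lay from 31 to 26 bases before the start in Nppb, 9 to 4 in Nppa and 117 to 112 in Col3a1. TATAAA is in 12.4% of all 32851 windows of that length, where a gene can have several. TGATAA was found in Nppa, 122 to 117 bases before the start, and in Nppb, 95 to 90 before it, and is in 7.94% of all windows. CATTCC was in Col3a1 and, on the opposite strand, in Nppb (12.6% of all windows). CCAAT was in Col1a2 and, on the opposite strand, in Pdk4 (33.8% of all windows). A match is a description of the letters only, and the arrays measured no binding.

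Enzymes that finish collagen rose with it: of 7 named transcripts for collagen processing and crosslinking 4 rose and 0 fell, with a median difference of 0.65, and all 4 had been listed by the study. Adamts2, which cuts the end from procollagen, had levels of -0.73, -0.53 and -0.72 in sham and 0.37, 0.65 and 0.35 in MI. Both groups were tight and did not overlap, with a difference of 1.12 ± 0.22. Loxl1 and Loxl2, lysyl oxidases that crosslink collagen and elastin, rose by 1.11 and 0.65, and Leprel2 (P3h3), a collagen prolyl hydroxylase, by 0.72. Without sham replicate 1 the call of Loxl2 was lost (0.43) and 3 of the 7 rose.

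Matrix glycoproteins rose in most members. Of 18 named transcripts 13 rose and 0 fell (median 0.74, 14 listed by the study), and 11 of the 18 rose without sham replicate 1. Postn, periostin, a protein that organizes collagen fibres and marks activated fibroblasts, had levels of -1.88, -0.43 and -0.99 in sham and 1.64, 1.39 and 1.91 in MI. The lowest MI array was well above the highest sham array, as the plot of matrix genes shows. The rise was 6.71-fold, a difference of 2.75 ± 0.48 (limma adjusted p = 0.839, higher in 3 of 3 MI arrays).

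**Figure D1:**
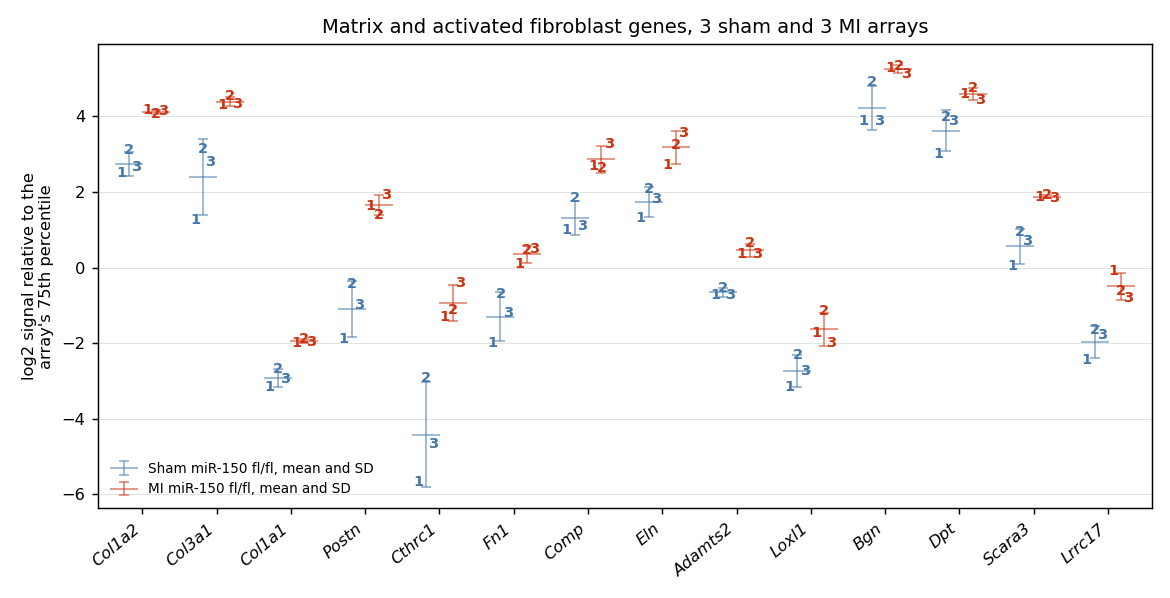
Level of 14 matrix and activated fibroblast genes on each array, as log2 signal relative to the 75th percentile of the array. Digits are replicate numbers, and lines with bars are the mean and SD of 3 arrays. MI arrays lie above all sham arrays for each of the 14 genes, and sham replicate 1 is often the lowest, as for Col3a1 at 1.24.

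Fn1, fibronectin, the adhesive scaffold on which collagen is assembled, had levels of -1.99, -0.69 and -1.22 in sham and 0.09, 0.47 and 0.49 in MI. Its groups did not overlap, and it rose 3.14-fold (difference 1.65 ± 0.40). Comp, a pentameric protein that binds collagen and that the study followed up, had levels of 1.0, 1.83 and 1.11 in sham and 2.68, 2.63 and 3.27 in MI. That was a 2.92-fold rise with no overlap (1.55 ± 0.40). The follow-up in the paper was qPCR of Comp, Nppa, Ank1 and Sprr1a. It reports only Sprr1a as higher both after MI and in MI cKO over MI miR-150 fl/fl hearts. Eln, elastin, which gives tissue recoil, had levels of 1.31, 2.08 and 1.80 in sham and 2.72, 3.25 and 3.57 in MI. It rose 2.72-fold (1.45 ± 0.35), again with no overlap.

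Cthrc1, a secreted protein of activated fibroblasts, was near background in sham hearts, where 1 of 3 arrays was well above background, against 3 of 3 after MI. Its levels were -5.68, -2.91 and -4.66 in sham and -1.31, -1.11 and -0.40 in MI, a fitted difference of 3.48 ± 0.66. The size depends on the treatment of dim signals, since normexp background correction gave 1.67, and on the sham arrays, with 2.85 without sham replicate 1 and 4.23 without sham replicate 2. Pamr1, a muscle-related serine protease homologue, had a difference of 1.92, or 0.95 with normexp, with 2 of 3 sham arrays above background. Smaller rises were seen for Ccdc80 (0.87), Itgbl1 (0.84), Wisp2 (Ccn5, 0.77), Mxra7 (0.71), Ltbp3 (0.70), Efemp2 (0.62), an elastic fibre protein, and Fbln1 (0.60), fibulin 1. Calls that were lost were those of Efemp2 without sham replicate 1 (0.38) or MI replicate 1 (0.58), of Fbln1 without MI replicate 2 (0.43) or sham replicate 3 (0.58), and of Itgbl1 without any of 5 arrays (0.73 to 0.90).

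Among proteoglycans, 4 of 8 named transcripts rose and 0 fell (median 0.55, 4 listed by the study). Bgn, biglycan, which coats collagen fibres, had levels of 3.88, 4.90 and 3.88 in sham and 5.27, 5.34 and 5.13 in MI. Its MI arrays were tight and above all sham arrays, a 2.04-fold rise (1.03 ± 0.25). Dpt, dermatopontin, rose by 0.97, Sdc1, a cell surface heparan sulfate proteoglycan, by 0.78 and Prelp by 0.71, the last not without sham replicate 1 (0.56). The 4 others, which include the glypicans Gpc1 and Gpc4, had overlapping groups or differences within the fold limit, and the median of the list was 0.30 without sham replicate 1.

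Proteases and their inhibitors rose in 6 of 11 named transcripts and fell in 0 (median 0.68, 6 listed by the study). Anpep, a membrane aminopeptidase, had levels of 1.25, 2.25 and 1.79 in sham and 2.73, 2.94 and 2.86 in MI, a difference of 1.08 ± 0.24 with no overlap. Serpinf1, a secreted serpin that limits vessel growth, rose by 1.07, Mmp3, a matrix metalloproteinase, by 0.96, Ctsk, the collagen-degrading cathepsin K, by 0.79, and Ctsz, another cathepsin, by 0.71. Timp2, an inhibitor of metalloproteinases, rose by 0.59 with overlapping groups. Without sham replicate 1 Ctsz (0.42) and Timp2 (0.36) were not called and 4 of 11 rose, with a median of 0.42. Timp2 was also lost without MI replicate 1 (0.59) or 3 (0.47) or sham replicate 3 (0.54).

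The markers of the activated fibroblast rose in full. All 10 named transcripts of that list passed the limits, with a median of 1.51, the second highest of the 19 lists with a named transcript after the urinary proteins, but the study had listed all 10 for this comparison. Scara3, a scavenger receptor, had levels of 0.04, 0.94 and 0.71 in sham and 1.85, 1.92 and 1.84 in MI. The MI arrays were nearly equal and the difference was 1.31 ± 0.24 (limma adjusted p = 0.839). Lrrc17, a secreted leucine-rich repeat protein, had levels of -2.44, -1.66 and -1.80 in sham and -0.10, -0.61 and -0.80 in MI. It rose 2.76-fold with no overlap.

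A pair of further markers of that list were not well above background on any sham array (0 of 3) and on 3 of 3 MI arrays, so that only bounds can be given. Lrrc15, a surface marker of matrix-producing fibroblasts, was at least 1.43-fold higher (limma adjusted p = 0.959), and Sfrp4, a secreted Wnt antagonist, at least 1.83-fold (adjusted p = 1), or 1.37-fold without MI replicate 2. The call of Sfrp4 was kept when MI replicate 1 was left out and lost when any of the other 5 arrays was. Meox1, a transcription factor of activated fibroblasts, rose by 0.72, but not without sham replicate 1 (0.57) or MI replicate 3 (0.58). Leaving out sham replicate 1, 8 of the 10 rose. The 6 named fibroblast markers among those listed by cell type summed to signals of 25.2, 47.8 and 38.9 times the 75th percentile in sham and 82.6 to 84.7 times in MI. These groups did not overlap, but the study had listed all 6 for this comparison, so the sums are not independent evidence. The part of more fibroblasts against more RNA per fibroblast was not tested.

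**Figure D2:**
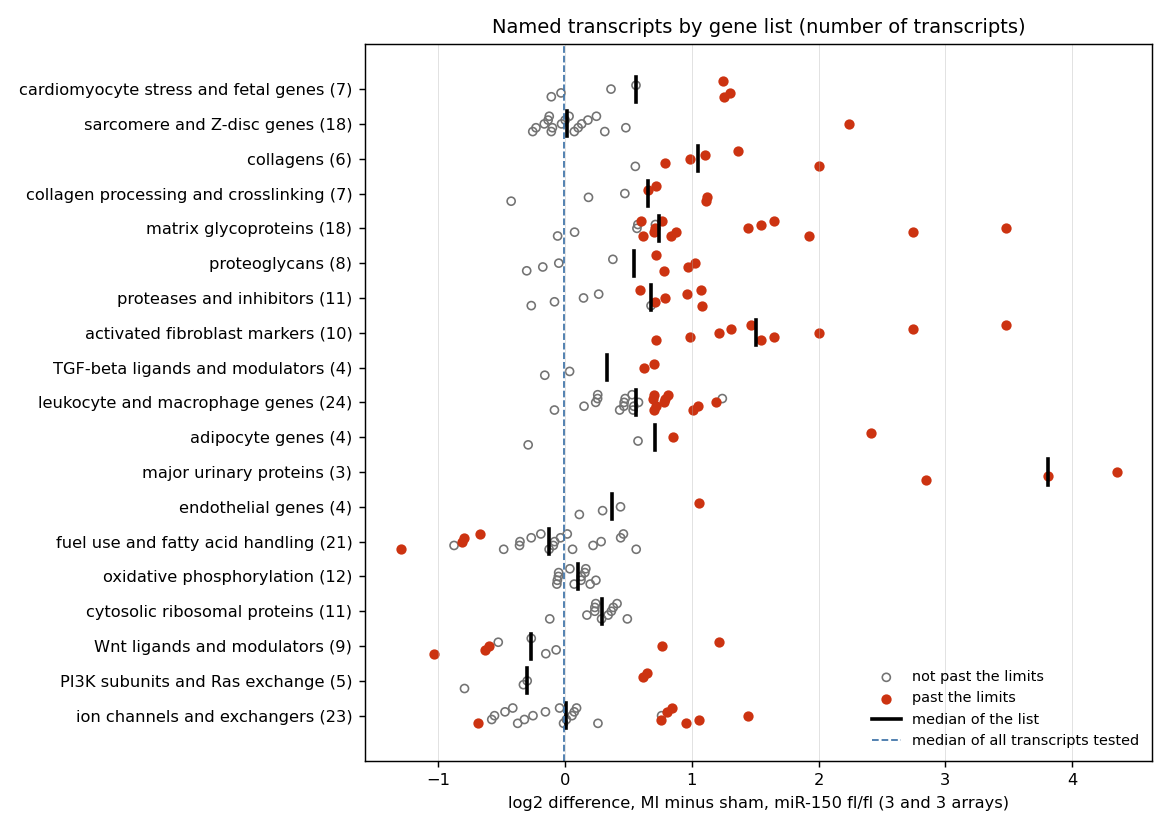
Log2 difference between MI and sham miR-150 fl/fl hearts for every named transcript of 19 gene lists. Filled points are past the limits of 1.5-fold and unadjusted p of 0.05, black bars are list medians and the dashed line is the median of all 54232 transcripts at -0.01. Matrix and fibroblast lists lie to the right, while the sarcomere, oxidative phosphorylation and ion channel medians are within 0.10 of 0.

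Of ligands and modulators of TGF-beta, the growth factor that drives fibroblast activation, 2 of 4 named transcripts rose, both listed by the study. Ltbp3, which stores latent TGF-beta in the matrix, had levels of -0.87, -0.45 and -0.68 in sham and -0.14, 0.17 and 0.06 in MI, a difference of 0.70 with no overlap. Tgfb3, a ligand, rose by 0.62, but not without sham replicate 1 (0.51), sham replicate 3 (0.57) or MI replicate 3 (0.42). Tgfb1, the most studied ligand, had levels of -2.0 to -2.55 in sham and -2.33 to -2.62 in MI, a difference of -0.16 that did not pass the limits.

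Among Wnt ligands and modulators, which act on fibroblasts and progenitor cells, 2 of 9 named transcripts rose, Sfrp4 and Wisp2, and 3 fell. All 5 had been listed by the study. The 3 that fell were Dvl1, the cytoplasmic adaptor of Wnt receptors, and the ligands Wnt1 and Wnt5a. All are dim: Dvl1 and Wnt5a were well above background on 0 of 3 MI arrays. On the processed signal they were at least 1.05-fold and 1.19-fold lower (limma adjusted p = 1 for both). Wnt1 was above background on 1 of 3 MI arrays and had a difference of -0.60. With normexp the differences were -0.06 for Dvl1, -0.02 for Wnt5a and -0.04 for Wnt1, none past the limits. The calls also depended on single arrays, those of Dvl1 on any of 5, of Wnt5a on any of 4 and of Wnt1 on any of 3.

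In PI3K signalling and Ras exchange, which relay growth factor signals, 2 of 5 named transcripts rose and 0 fell, with a median difference of -0.30 (3 listed by the study, 1 of them as lower). Sos1, an exchange factor that activates Ras, had levels of 1.25, 0.82 and 0.82 in sham and 1.67, 1.47 and 1.68 in MI, a difference of 0.64. Pik3cb, a catalytic subunit of PI3K, rose by 0.62. Neither pair of groups overlapped. The first call was lost without sham replicate 2 or 3 (0.57 each) and the second without MI replicate 2 (0.47) or sham replicate 1 (0.49). Pik3r1, a regulatory subunit of PI3K and the entry listed as lower, had levels of -3.91, -3.83 and -4.05 in sham and -4.54, -4.95 and -4.67 in MI. All MI arrays were below all sham arrays and 0 of 3 were well above background, so that it was at least 1.32-fold lower, but its unadjusted p of 0.0556 missed the limits (limma adjusted p = 1). It passed them in 4 of 17 settings, among them the 6 arrays fitted alone, the authors' values and the unpaired 2-tailed test, and had the opposite sign with slide and row as a block (0.81).

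The stress program of cardiomyocytes was raised in part. Of 7 named stress and fetal transcripts 3 rose and 0 fell (median 0.56), and those 3 had been listed by the study. Nppa, atrial natriuretic peptide, a hormone released by stretched muscle, had levels of 3.36, 3.89 and 4.15 in sham and 5.04, 4.83 and 5.27 in MI. Nppb, the related B-type peptide and a clinical marker of heart failure, had levels of 2.99, 3.65 and 3.65 in sham and 4.31, 5.11 and 4.61 in MI. Both were above sham in every MI array, and rose 2.37-fold (difference 1.25 ± 0.35) and 2.38-fold (1.25 ± 0.32), with limma adjusted p = 1 for each.

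Sprr1a, a small proline-rich protein induced by stress in cardiomyocytes and the gene the study followed up, had levels of -1.40, -1.04 and -1.40 in sham and -0.13, -0.15 and 0.33 in MI. The groups were well apart, and it rose 2.46-fold (1.30 ± 0.40). The other 4 did not pass the limits. Acta1, skeletal α-actin, had a difference of 0.56, Ankrd1, a titin-binding stress protein, of 0.36, Gdf15, a stress cytokine, of -0.03 and Myh7, the slow myosin of the fetal heart, of -0.11. Myh7 had the widest spread, with levels of 3.83, 6.23 and 4.97 in sham and 4.68, 5.19 and 4.84 in MI, and its difference was -0.70 without sham replicate 1 and 0.50 without sham replicate 2.

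Of 18 named sarcomere and Z-disc transcripts 1 rose (5.56%, against 12.8% of all named transcripts) and 0 fell past the limits. The median difference was 0.02. The 1 that rose was Tnnt3, the troponin T of fast skeletal muscle, which was above background on 0 of 3 sham and 3 of 3 MI arrays. On the processed signal it was at least 3.17-fold higher (limma adjusted p = 0.955). Its normexp difference of 0.59 was smaller than that bound, so the size depends on the treatment of background. Both named transcripts of cardiac troponin T, Tnnt2, had differences near 0 (-0.12 and -0.13). The 10 named transcripts of cardiomyocyte markers summed to 216 to 243 times the 75th percentile in sham and 146 to 233 times in MI. These sums overlapped. Of the 10, 1 rose past the limits and 0 fell, with a median difference of -0.14 and a highest of 0.95.

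**Figure D3:**
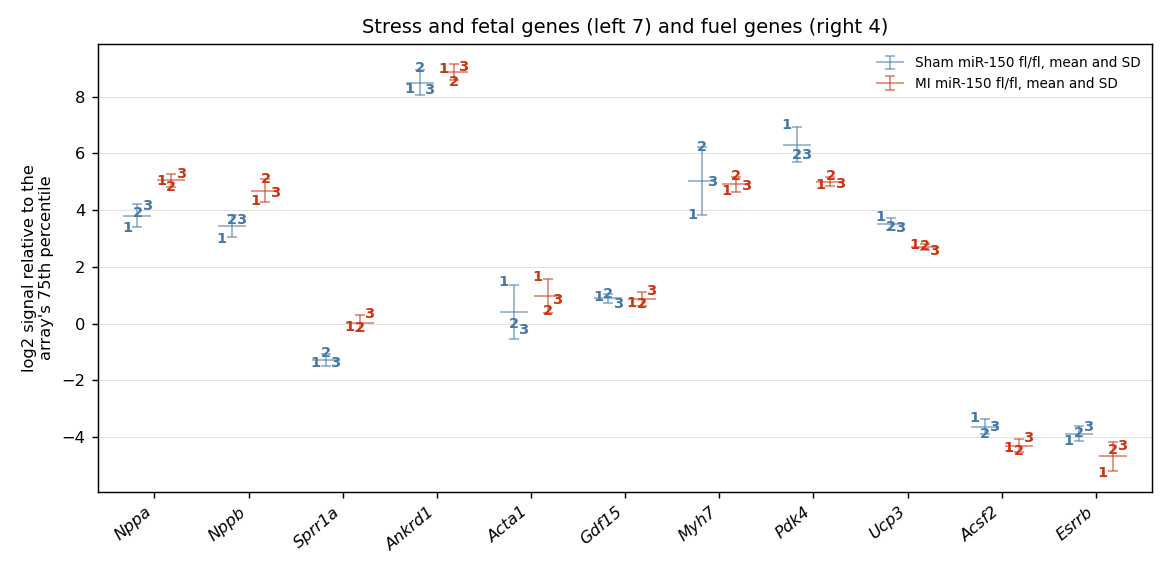
Level of 7 stress and fetal genes and 4 genes of fuel use on each array, as log2 signal relative to the 75th percentile of the array, with replicate digits, mean and SD of 3 arrays. Nppa, Nppb and Sprr1a are above sham in all MI arrays and Pdk4, Ucp3, Acsf2 and Esrrb below it, while Ankrd1, Acta1, Gdf15 and Myh7 overlap.

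Some genes of fuel use fell. Of 21 named transcripts 4 fell and 0 rose past the limits, with a median of -0.13, while 36 of all 892 named transcripts fell and 114 rose. The study had listed 5 of the 21, of which 4 as lower and 1 as higher, Pdk4 not among them. Pdk4, the kinase that shuts pyruvate out of oxidation when fatty acid is burned, had levels of 7.01, 5.94 and 5.94 in sham and 4.88, 5.18 and 4.93 in MI. The lowest sham array was above the highest MI array, and the fall was 2.46-fold (difference -1.30 ± 0.27, limma adjusted p = 0.955, lower in 3 of 3 MI arrays). Ucp3, a mitochondrial carrier that also follows fatty acid supply, had levels of 3.74, 3.41 and 3.36 in sham and 2.76, 2.74 and 2.56 in MI. That was a 1.76-fold fall with tight groups (-0.82 ± 0.17).

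The other 2 transcripts that fell were dim. Acsf2, an acyl-CoA synthetase, and Esrrb, an orphan nuclear receptor, had differences of -0.67 and -0.80, each above background on 1 of 3 MI arrays, and -0.12 and -0.07 with normexp. The call of each was lost without any of 3 arrays. Transcripts of fatty acid oxidation enzymes such as Eci1, Ech1 and Acadvl had differences of -0.04, -0.19 and -0.27, none past the limits. Acsl5, an acyl-CoA synthetase and the entry listed as higher, had levels of 1.02, 1.35 and 1.29 in sham and 1.82, 1.95 and 1.57 in MI. Its groups did not overlap, and its difference of 0.56 ± 0.14 (unadjusted p = 0.00233 in limma) was below the fold limit. It was past the limits in 8 of 18 settings, among them quantile normalization (0.59) and slide as a block (0.67).

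Oxidative phosphorylation and ribosomal protein transcripts were not changed past the limits, 0 of 12 with a median of 0.10 and 0 of 11 with a median of 0.29. None of them had been listed for this comparison. The medians were -0.14 and -0.02 without sham replicate 1, which was the lowest sham array in 12 of 12 and 10 of 11 of them.

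Leukocyte transcripts were mostly a little higher. Of 24 named transcripts of leukocyte and macrophage genes 10 rose (41.7%, against 12.8% of all named transcripts) and 0 fell, with a median of 0.56. A difference above 0 was seen in 23 of them, and in 46.6% of all transcripts tested. The study had listed 5 of them for this comparison. The others were named through its lists of cKO against miR-150 fl/fl hearts, which share these arrays. Neither count is therefore independent evidence of a rise. Mpeg1, a pore-forming protein of macrophages, had levels of 0.22, 1.2 and 1.30 in sham and 1.59, 2.13 and 2.01 in MI. Every MI array was above every sham array, with a difference of 1.01 ± 0.31. Lyz2, lysozyme of macrophages and granulocytes, had levels of 3.35, 3.85 and 4.37 in sham and 4.72, 4.6 and 4.41 in MI. Its highest sham array and lowest MI array nearly touched, and it rose by 0.72.

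Other leukocyte transcripts that rose were Ms4a7 (0.79), a macrophage membrane protein, Bin2 (0.81), Cd72 (0.70), a B-cell receptor partner, Fcrls (0.69), Tlr12 (0.70), Plac8 (1.19), Sirpb1b (0.78) and Arhgdib, above background on 0 of 3 sham arrays and at least 1.76-fold higher. Emr1 (Adgre1, F4/80), the classical macrophage marker, had overlapping groups and a difference of 0.47. Ms4a1 (CD20), a B-cell marker, was above background on 0 of 3 sham and 2 of 3 MI arrays and did not pass the limits. Sham replicate 1 was low in this group too: without it 6 of 24 rose, and the calls of Lyz2 (0.46), Ms4a7 (0.51), Bin2 (0.57), Fcrls (0.47) and Tlr12 (0.48) were lost. Those of Lyz2 (0.65), Fcrls (0.56) and Cd72 (0.57) were lost without MI replicate 1, those of Tlr12 (0.58) and Sirpb1b (0.61) without MI replicate 2, that of Tlr12 (0.66) without MI replicate 3 and that of Sirpb1b (0.60) without sham replicate 3. With normexp 4 rose and the median was 0.34. Anxa1, a protein that resolves inflammation, which is not on that list, rose by 0.78, or 0.47 without sham replicate 1.

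**Figure D4:**
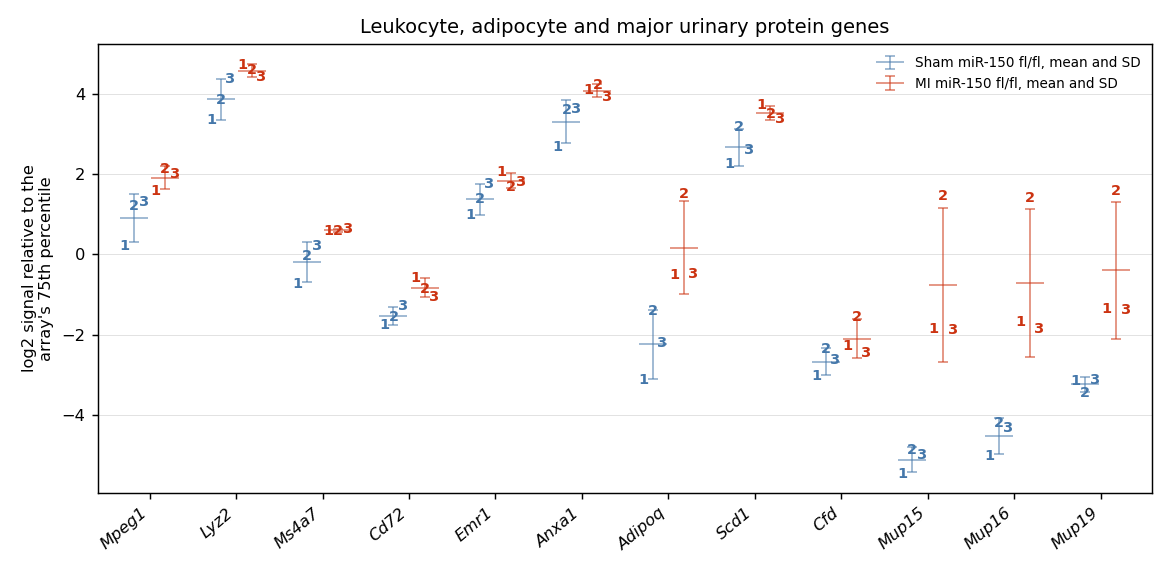
Level of leukocyte, adipocyte and major urinary protein genes on each array, as log2 signal relative to the 75th percentile of the array, with replicate digits, mean and SD of 3 arrays. MI replicate 2 is at 1.5 for Adipoq and from 1.41 to 1.58 for the 3 Mup genes, far above the other MI arrays.

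Fat cell transcripts were higher in part, with 1 array far above the rest. Adipoq, adiponectin, the hormone of fat cells, had levels of -3.13, -1.40 and -2.20 in sham and -0.51, 1.5 and -0.50 in MI. MI replicate 2 was much higher than the other MI arrays, and all 3 were above sham. The difference was 2.41 ± 0.74, or 1.74 without that array. Scd1, a fatty acid desaturase, rose by 0.85 with no overlap, so that 2 of 4 named adipocyte transcripts rose, both listed by the study. Cfd, adipsin, another product of fat cells, had a difference of 0.58 and Plin4, a lipid droplet protein, of -0.29, neither past the limits. Summed over the 3 named adipocyte markers, signals were 0.74 to 1.01 times the 75th percentile in sham, 1.26 and 1.28 in MI replicates 1 and 3 and 3.57 in MI replicate 2.

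All 3 named major urinary protein genes rose. These are secreted carriers of liver and glands with near-identical copies, so 1 probe can read several genes and the names are uncertain. Mup15 was above background on 0 of 3 sham arrays and had levels of -1.86, 1.45 and -1.88 in MI. The rise was by at least 12.6-fold (limma adjusted p = 1), and by 5.84-fold or more when MI replicate 2 was left out. Mup16, above background on 2 of 3 sham arrays, had a fitted difference of 3.81, or 2.75 without that array and 2.06 with normexp. Mup19, above background on all 6 arrays, had a difference of 2.85, or 1.86 without MI replicate 2 and 1.87 with normexp. MI replicate 2 was the highest array for these 3 genes and for Adipoq, and its part in these results beyond those values was not tested.

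Of 4 named endothelial transcripts 1 rose (25%, against 12.8% of all named transcripts). It was Aplnr, the apelin receptor, by 1.06, or 0.69 and not past the limits without sham replicate 1. Mmrn2, which lines vessels, had a difference of 0.44 with no overlap, below the fold limit. Among other transcripts named by the study, Hp, haptoglobin, an acute phase protein, rose by 1.96 with levels of 3.75, 2.13 and 0.95 in MI against 0.08 to 0.46 in sham. Its MI arrays spread widely, with a difference of 1.23 without MI replicate 1 and 2.62 without MI replicate 3, and its call was lost without MI replicate 1 or sham replicate 1 (1.85). Ptgis, prostacyclin synthase, rose by 0.93, or 0.63 and not past the limits without sham replicate 1. Mcm6, a replicative helicase subunit, had levels of 0.39, 0.74 and 0.51 in sham and 1.65, 1.22 and 1.03 in MI, a rise of 0.76. That call was lost without MI replicate 1 (0.58).

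Ion channels showed rises in particular transcripts. Of 23 named transcripts 6 rose (26.1%, against 12.8% of all named transcripts) and 1 fell, with a median of 0.01. The study had listed 8, and most of the rises were variants of 1 gene. For Kcnma1, the large-conductance calcium-activated potassium channel, 5 transcript variants were named and 4 rose, by 0.75 (NM_001253362) to 1.44 (NM_001253361), while the remaining one had a difference of 0.76 outside the p limit. In all 5 every MI array was above every sham array. The call of NM_001253362 was lost without MI replicate 2 (0.62) or sham replicate 3 (0.61), and that of NM_001253373 without sham replicate 1 (0.57). All 5 read the same gene and are not independent. Panx1, a channel that releases ATP, had levels of 0.05, 0.95 and 0.49 in sham and 1.66, 1.5 and 1.49 in MI, a difference of 1.05 ± 0.20.

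Kcnj6, an inward rectifier potassium channel, fell by 0.68 on the log2 scale, with 1 of 3 MI arrays above background and a normexp difference of -0.12. Ank1, the membrane anchor protein ankyrin 1, moved in opposite directions in its 2 named transcripts. NM_001277281 had levels of -0.92, -0.37 and -1.38 in sham and -1.53, -1.93 and -1.64 in MI, a difference of -0.81 that was not past the limits without MI replicate 2 (-0.69) or sham replicate 2 (-0.55). NM_001110783 was above background on 0 of 3 sham and 2 of 3 MI arrays, and was at least 1.26-fold higher.

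The remaining transcripts with large differences were less tied to known programs of the heart. 1500015O10Rik (Ecrg4), a secreted peptide precursor, was above background on 1 of 3 sham arrays and had a difference of 3.04 ± 0.68, or 3.94 without sham replicate 2 and 2.41 without sham replicate 3. Pramef12, a leucine-rich repeat protein, was above background on 0 of 3 sham and 2 of 3 MI arrays, and rose by at least 1.87-fold, by 1.22-fold or more when MI replicate 2 was left out. Downward, Dnah7b, an axonemal dynein heavy chain, had the lowest adjusted p of any named transcript (0.621 in limma). Its levels were -1.75, -1.78 and -1.87 in sham and -3.48, -3.33 and -3.29 in MI, a 2.96-fold fall in which both groups were tight.

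Olfr514, an olfactory receptor, had levels of -1.82, -2.38 and -3.68 in sham and fell by 2.09 on the log2 scale, with 1 of 3 MI arrays above background. Lrrc52, an auxiliary subunit of potassium channels, fell by 0.86. Mrps2, a mitochondrial ribosomal protein (-1.02), was dim after MI, with 1 of 3 arrays above background, and its call was lost without any of the 6 arrays. Of the 35 transcripts that the study had listed as lower, 25 passed the limits, 6 with normexp and 13 without sham replicate 1. Of the 103 listed as higher, 97 passed, 61 with normexp and 66 without sham replicate 1.

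The 6 cKO arrays carry the same comparison in other mice and share no array with it, so they can be set beside it. Of the 103 transcripts that the study listed as higher in miR-150 fl/fl hearts, 82 (79.6%) were above 0 in MI miR-150 cKO against Sham miR-150 cKO. There 58.4% of all transcripts and 64.9% of all named ones were. Past the limits 26 (25.2%) of the 103 were higher and 1 lower. Of all transcripts 4.6% were higher, but of all named ones 22.2% were, so the share of the 103 was near that of any named transcript. Those 26 included the matrix and fibroblast genes Lrrc15, Fn1 (1.58), Comp (1.38), Col1a1 (1.27), Bgn (0.99), Eln (0.97) and Col1a2 (0.80), with Nppa (0.90) and Sprr1a (0.98). Of the 35 listed as lower, 0 were lower past the limits in cKO, where 1.75% of all were. Of these 35, 4 (11.4%) were higher, among them Acsf2, Pcdhga7 and Slc36a2, a share below the 22.2% of all named transcripts. The cKO MI arrays were all on slide 1 and the cKO sham arrays all on slide 2. With slide as a block 6 of the 103 (5.83%) were higher past the limits, where 1420 (2.62%) of all transcripts and 3.59% of all named ones were. Of the 35 listed as lower, 0 were higher and 0 lower in that fit. The median of the 103 in that fit was 0.47, in place of 0.44, and that of all transcripts -0.0066, in place of 0.06.

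**Figure D5:**
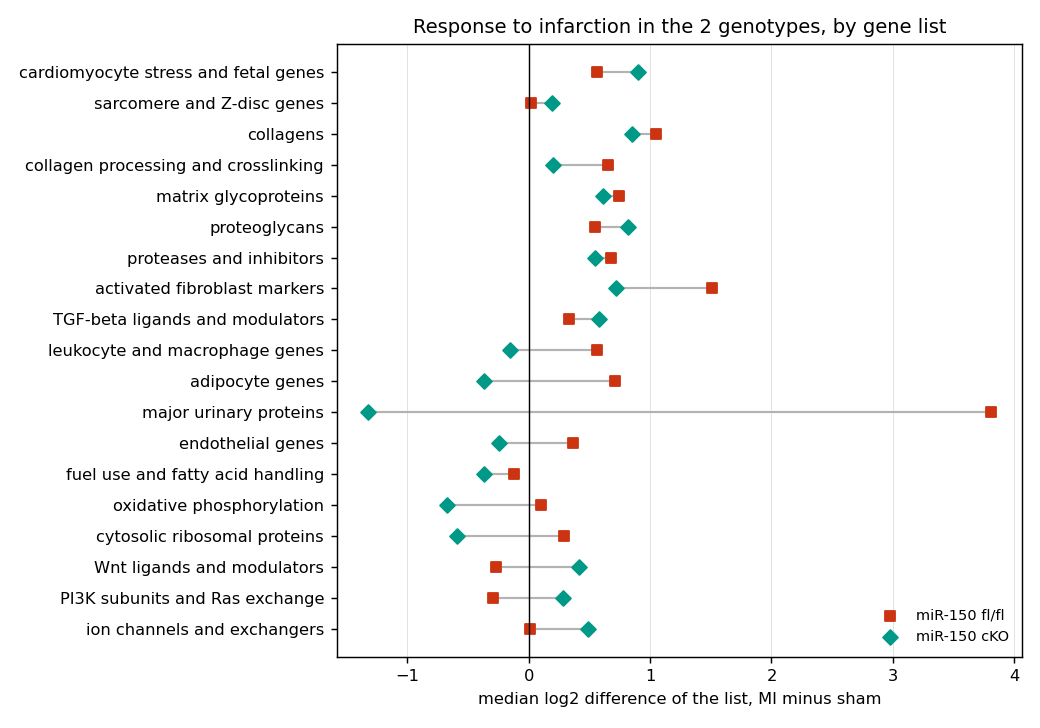
Median log2 difference between MI and sham for each of 19 gene lists, in miR-150 fl/fl hearts (squares) and miR-150 cKO hearts (diamonds), 3 and 3 arrays each. Collagens were at 1.05 and 0.85, while leukocyte genes were at 0.56 and -0.16 and activated fibroblast markers at 1.51 and 0.72. Slide and surgery coincided in cKO, and with slide as a block these cKO medians were 0.68, -0.06 and 0.59. Members were named through study lists drawn from these arrays, so the gaps are not independent evidence of a genotype difference.

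The difference between the responses of the genotypes was tested for each transcript. After adjustment 0 transcripts remained at 0.05 in limma, with 7285 (13.4%) at an unadjusted p below it, and the lowest adjusted p of a named transcript was 0.189. For Postn the sham mean was -1.10 ± 0.73 (SD, n = 3) in miR-150 fl/fl and 1.53 ± 0.98 in cKO, and the MI means were 1.65 ± 0.26 and 2.38 ± 0.43, a difference of responses of 1.89 (adjusted p = 0.297). For Nppb the sham means were 3.43 ± 0.38 and 5.75 ± 0.40 and the MI means 4.68 ± 0.40 and 5.31 ± 0.55 (difference of responses 1.69, adjusted p = 0.223). For Pdk4 the MI means were 5.0 ± 0.16 in miR-150 fl/fl and 6.09 ± 0.09 in cKO, from sham means of 6.30 ± 0.62 and 5.81 ± 0.31 (difference of responses -1.57, adjusted p = 0.204).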

How the data were processed

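Left ventricular RNA, depleted of rRNA and labelled by random priming, was hybridized to 1 array per mouse. The authors deposited the intensity of each spot from Agilent Feature Extraction 11.0.1.1, background-subtracted and not normalized between arrays, and a table of log2 values whose method is not given in the sources used here. From the intensities, log2 values were taken relative to the 75th percentile of their array. The 54232 of 60819 probes that exceeded background well on 3 or more of the 12 arrays entered limma 3.58.1 (R 4.3.3, and the data.table package) as 4 group means, with 8 residual degrees of freedom and 435 flagged spots missing. Correlations among the 6 arrays were 0.970 to 0.991, and 81.5% to 87.9% of probes were well above background on each. The number of arrays limits the precision.

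The study's supplementary gene lists served as a name key and to say which transcripts the study had listed for a comparison, and in which direction. The fold and p of each entry were recomputed from the deposited log2 table and matched within a relative tolerance of 2e-05, and none of the lists' own fold or p values is reported. Of the 892 named probes, 879 had their accession in the RefSeq table, 53 with a newer symbol. Promoters are from RefSeq. The headers name build mm9, of which no coordinates are used.

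Named transcripts are list members past the limits, the 10 largest named differences in each direction with no overlap, further transcripts of those genes, and Sprr1a, Nppa, Comp and Ank1. List members outside the limits, Acsl5 and Pik3r1 included, and Hp, Ptgis, Mcm6 and Anxa1, were picked after their values were seen. Members and gene lists were chosen with earlier results of these data known. No smooth muscle or pericyte marker (0 of 8) had a name. For a bound, each dim array counts at the higher of its lowest signal among probes well above background and the probe's own. Such a bound holds for the processed signal only, and normexp differences can be smaller. Some named transcripts are not reported here. The method was tested on simulated data. Plots used Python 3.11.15 with matplotlib 3.10.9.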

Additional observations from a re-analysis of the deposited data

How the results depend on the processing

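The main values were 478 higher and 198 lower transcripts, and 0 at an adjusted p of 0.05. Normexp gave 172 higher and 56 lower, the filter on all 6 arrays 302 and 95, and the unpaired 2-tailed test 198 and 87. Lower counts were 348 without a filter on dim probes, 390 with slide as a block and 320 within slide 2. Adjusted calls were 1 with quantile normalization, 1 with the authors' values, 1 without the filter and 5 with slide as a block, and for the difference between genotypes 5 without the filter and 22 with slide as a block. A block of slide and row, chosen after seeing the data and resting on 1 sham cKO array, gave 3608 higher and 1699 lower, with 5 adjusted calls and 11 for the difference. Leaving out 1 miR-150 fl/fl array gave 266 (without sham replicate 1) to 1396 (without sham replicate 2) higher, with 786 without MI replicate 1, 166 to 389 lower and 0 to 4 adjusted calls. Leaving out 1 array gave 0 to 66 adjusted calls for the difference between genotypes, the last without sham cKO replicate 1.

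Signs turned with slide and row as a block for Ankrd1 (-0.22), Gdf15 (0.12), Myh7 (0.68), Wnt5a (0.33) and the PI3K median (0.51, or 0.16 with the filter on all 6 arrays). With 1 array left out Gdf15 ranged from -0.18 to 0.050, Myh7 from -0.70 to 0.50 and Tgfb1 from -0.26 to 0.014. The cause was not tested. Of 1882 values of single transcripts under other settings 1625 kept their side of the limits, 229 lost it, 18 gained it and 10 reversed. Of 378 list medians 362 moved by less than their spread.

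Deviations of MI and sham samples with the same replicate number had r = 0.08, 0.19 and -0.05. Those with different numbers had r from -0.17 to 0.13. With 3 arrays in a group these values cannot decide whether the numbers pair mice, and replicate 1 was the male in both groups. With the replicate number as a block, 506 transcripts were higher and 200 lower, and 0 had an adjusted p under 0.05.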
